A study of Mus musculus with 8 samples.

Results

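Open chromatin of the mouse tailbud was not spread evenly over the autosomes, and the regions described here are those of its most crowded stretches. Accessibility was read by ATAC-seq, whose Tn5 transposase cuts and tags the DNA that nucleosomes leave free. Each chromosome was divided into bins of 1 Mb, each of the 26620 regions counted by the authors was placed by its midpoint, and the regions of bins that hold 30 or more were taken as members. There were 1676 members (6.30% of all regions) in 47 of the 2368 bins that hold a region (1.98%). They were set against the 1731 regions of the 503 bins that hold 5 or fewer. Counts did not enter this choice, although each region overlaps a peak in at least 2 of the same libraries. No region was left out for low counts, so all 1676 members were tested.

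The libraries came from tailbuds at embryonic day 9.5, 4 of them wild-type (WT/WT) and 4 homozygous for the Danforth mutation (Sd/Sd). Both groups share the outbred CD-1 background, and carriers were kept as Sd/+ animals on it. This mutation, Danforth's short tail, arose spontaneously and shortens the vertebral column. Tailbuds of a pair of mice were combined into 1 library when needed, and the sources used here do not say for which, so the p-values speak of the spread among these 8 libraries. The labelled tissue was not checked against marker genes, since no gene annotation of the files' build, mm9, was used here, and for the same reason no sequence is shown.

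As background, genes are packed closely in some parts of mammalian chromosomes and are rare in others, the gene deserts. Crowded stretches tend to be rich in G and C, to replicate early and to hold many promoters of broadly expressed genes, which are among the most constantly open sites of a cell. Other crowded stretches are tandem arrays of related genes, such as those of histones, of Hox factors or of KRAB zinc finger proteins, a large family of DNA-binding repressors. Arrays of near-identical copies are also known to vary in copy number between mice, and short reads from such copies cannot always be placed on 1 of them.

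All counted regions lay on the 19 autosomes, so the sex chromosomes are not described. The dense megabases lay on 15 of the 19 autosomes. Chromosomes 4, 7 and 10 had 6 each and chromosome 2 had 5, while chromosomes 5, 14, 16 and 18 had 0. Members made up 13.7% of the regions of chromosome 10, 12.5% of chromosome 7 and 11.6% of chromosome 4, against 2.67% of chromosome 11 and 1.79% of chromosome 3. Of the 47 dense megabases, 17 touched another, as on chromosome 1 from 173 to 176 Mb, chromosome 8 from 72 to 75 Mb and chromosome 10 from 126 to 129 Mb.

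The most crowded megabase was that of chromosome 17 from 56 to 57 Mb, with 53 regions, where the median bin held 10. It was followed by chromosome 2 from 177 to 178 Mb with 49 regions, chromosome 1 from 173 to 174 Mb with 46, chromosome 8 from 73 to 74 Mb with 43 and chromosome 1 from 174 to 175 Mb with 42. Chromosome 4 from 114 to 115 Mb, chromosome 10 from 79 to 80 and from 126 to 127 Mb and chromosome 12 from 114 to 115 Mb held 41 each, and chromosome 7 from 148 to 149 Mb held 39. From background knowledge of the mouse map, and not from the files, chromosome 2 from 177 to 178 Mb and chromosome 13 from 67 to 68 Mb (32 regions) are arrays of KRAB zinc finger genes. Chromosome 13 from 21 to 22 Mb (38 regions) and from 23 to 24 Mb (34 regions) holds clustered histone genes, and chromosome 15 from 102 to 103 Mb (37 regions) holds the HoxC cluster, which patterns the trunk and tail.

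At the threshold, 5 bins held exactly 30 regions and 8 bins held 29. Their regions had median levels of 34.8 and 32.8 CPM (a region's count over the library's total count in all regions, times 1000000) and median widths of 1024 and 969.5 bp. At the other end, 140 bins held 5 regions and 140 held 6, with medians of 21.7 and 24.8 CPM.

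Regions of dense megabases were wider and held more counts than those of sparse ones. The median width was 938 bp (quartiles 584.8 and 1282) among members and 807 bp (509.5 and 1204) in sparse bins, a ratio of 1.16. The median level, as the mean of the 8 libraries, was 32.2 CPM (quartiles 19.9 and 53.6) among members and 21.6 CPM (14.4 and 37.4) in sparse bins, a ratio of 1.49. A wider region collects more counts, and per kilobase the medians were 36.8 and 29.8 CPM, a ratio of 1.23. Between these extremes the medians rose with crowding, at 867 bp and 24.9 CPM in bins of 6 to 14 regions and at 881 bp and 26.6 CPM in bins of 15 to 29. Regions are not replicates, so these are descriptions of the set.

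**Figure D1:**
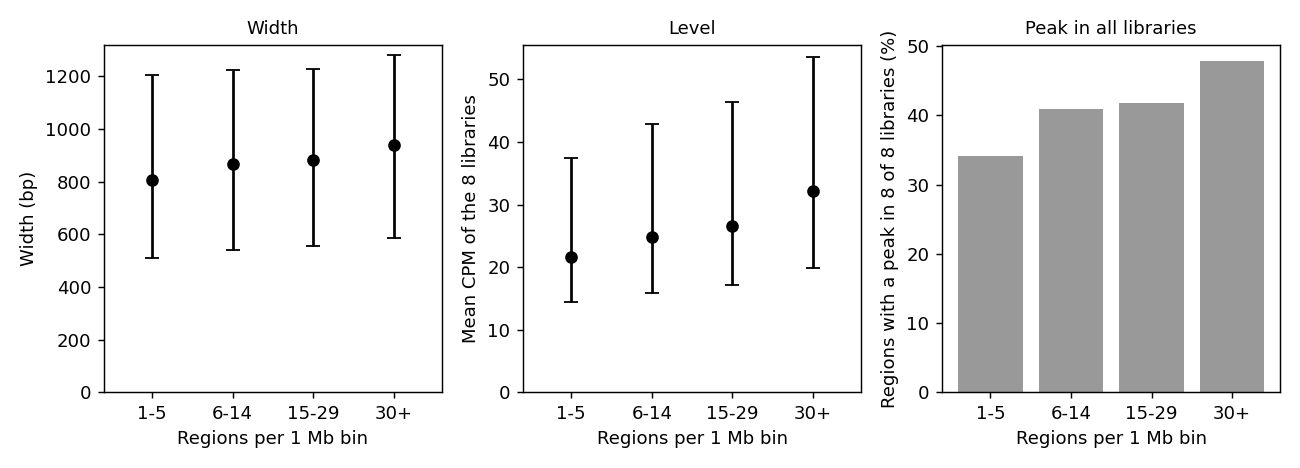
Width, level and peak presence of open regions by the number of regions in their 1 Mb bin (x axis). Points are medians over regions and bars reach from the lower to the upper quartile, of width in bp (left) and of mean CPM over 8 libraries (middle); grey bars give the percentage of regions with a peak in 8 of 8 libraries (right). All 3 measures are lowest in bins of 1 to 5 regions (807 bp, 21.6 CPM, 34.1%) and highest in bins of 30 or more (938 bp, 32.2 CPM, 47.9%).

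The difference in level was present in each library. The median member of WT replicates 1 to 4 stood at 1.47, 1.53, 1.54 and 1.41 times the median sparse region. The ratios of Sd/Sd replicates 1 to 4 were 1.53, 1.44, 1.43 and 1.37. The ratio averaged 1.49 ± 0.0613 for WT and 1.44 ± 0.0674 for Sd/Sd (mean ± SD over 4 libraries per genotype). All 8 ratios were above 1, and the ranges of the genotypes overlapped.

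The authors' peak calls, made in each library alone, were more constant on members. A peak lay on 802 of the 1676 members (47.9%) in all 8 libraries and on 591 of the 1731 sparse regions (34.1%). Each counted region overlapped a peak in at least 2 libraries, and those with a peak in no more than 2 were 183 members (10.9%) and 310 sparse regions (17.9%). Where a peak was called, its fold enrichment, the peak caller's own value, had medians of 3.30 over members and 3.27 over sparse regions. Members were therefore called as peaks in more libraries at nearly the same enrichment. Between 67.8% and 83.5% of members had a peak in a given library, 74.2% ± 5.11 for WT and 78.1% ± 5.53 for Sd/Sd (mean ± SD over 4 libraries per genotype), which overlapped.

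Dense megabases differed widely among themselves. Their median region was between 523.5 bp wide (chromosome 2 from 135 to 136 Mb) and 1279 bp (chromosome 10 from 127 to 128 Mb), and its level lay between 19.0 CPM (chromosome 7 from 52 to 53 Mb) and 58.5 CPM (chromosome 13 from 67 to 68 Mb). At that zinc finger array of chromosome 13, 96.9% of the 32 regions had a peak in all 8 libraries. The share was 15.2% of 33 regions on chromosome 6 from 133 to 134 Mb. In the HoxC megabase it was 29.7% of 37 regions, with a median level of 22.2 CPM. In the histone megabases of chromosome 13 starting at 21 and 23 Mb it was 31.6% and 41.2%, with medians of 22.4 and 25.3 CPM. Some of the crowded megabases were thus at or below the genome-wide median of 25.8 CPM.

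Members also filled their megabase to different degrees. The distance between the lower and the upper quartile of the members' midpoints had a median of 412.7 kb. It was 129.4 kb on chromosome 7 from 17 to 18 Mb, 145.3 kb on chromosome 13 from 23 to 24 Mb and 167.6 kb on chromosome 17 from 23 to 24 Mb, where the regions formed tight groups, but 601.4 kb on chromosome 2 from 177 to 178 Mb. Members covered a median of 3.62% of the bases of their megabase, against 0.315% in sparse bins, which the choice by number of regions fixes for the most part.

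The members of highest level sat together. The 4 highest lay on chromosome 1 between 173.4 and 173.5 Mb, in a run of 11 neighbouring regions from 173431851 to 173499074, each above 60 CPM per kb. This run was singled out after its values were seen. Its regions had 57.1 to 353 CPM and a median of 97.4 CPM per kb, and they held 58.6% of the megabase's signal. The other 35 regions of that megabase had a median of 37.2 CPM per kb and at most 134 CPM. The authors' peak fold enrichment ran the other way, with a median of 1.98 in the run (1.76 to 3.17) and 3.38 in the other 35 regions.

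The region from 173476060 to 173479687 of chromosome 1, 3628 bp wide, had the highest level of all members and ranked 5 among the 26620 regions. It measured 358.7, 361.3, 381.4 and 348.5 CPM across WT replicates 1 to 4 and 326.9, 375.4, 325.1 and 348.8 CPM across the Sd/Sd ones. The libraries of the genotypes overlapped (log2 fold change -0.07 with SE 0.0738, edgeR adjusted p = 0.948). The region from 173444155 to 173448802, at 4648 bp, was the widest of all 26620 regions. It measured 351.8, 311.3, 326.4 and 296.6 CPM in WT and 293.8, 329.1, 293.2 and 304.3 CPM in Sd/Sd, which again overlapped (log2 fold change -0.07, edgeR adjusted p = 0.948). The next were the regions from 173470281 to 173472838, at 320 ± 6.89 CPM in WT and 295.5 ± 24.1 in Sd/Sd, and from 173496862 to 173499074, at 256.2 ± 9.79 and 252.3 ± 6.07 CPM (mean ± SD over 4 libraries per genotype). The last of the 5, on chromosome 4 from 145036094 to 145039585, measured 242.8 ± 10.5 CPM in WT and 235.4 ± 17.9 in Sd/Sd. The values of these 5 depended on the scaling, and with cyclic loess in limma their log2 fold changes were -0.16, -0.15, -0.19, -0.087 and -0.11, in the order given, with adjusted p from 0.376 to 0.893. None of the 5 passed an unadjusted p of 0.05 in edgeR, and neither did the 2 remaining regions among the 5 widest. Those were 3873 bp on chromosome 6 from 133703089 to 133706961, at 92.6 ± 7.09 and 93.9 ± 1.64 CPM, and 3668 bp on chromosome 10 from 126775951 to 126779618, at 126.5 ± 15.5 and 121 ± 11.4 CPM.

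Between the genotypes, no member passed an adjusted p of 0.05, but members with a small p were mostly lower in Sd/Sd tailbuds. With edgeR's quasi-likelihood test, adjusted by Benjamini-Hochberg over all 26620 regions, 0 of 1676 members were called, where 0.0188% of all regions were, and the smallest adjusted p of a member was 0.343. DESeq2 also called 0. At an unadjusted p under 0.05 there were 27 members higher in Sd/Sd (1.61%, against 2.98% of all regions) and 89 lower (5.31%, against 3.09%). DESeq2 gave 23 higher and 62 lower, where 2.15% and 2.27% of all regions were. In sparse bins the edgeR counts were 53 higher (3.06%) and 56 lower (3.24%) of 1731, close to those of all regions. The median log2 fold change was -0.03 over members, -0.0049 over sparse regions and 0.00057 over all regions, and 59.1% of members lay below 0, against 49.9% of all regions. Neighbouring members share their stretch of chromosome, so these counts are not counts of independent events.

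The CPM of the 4 libraries of one genotype lay wholly above those of the other at 16 members higher in Sd/Sd (0.955%, against 1.6% of all regions) and at 37 lower (2.21%, against 1.6%). In sparse bins 26 regions were higher in this sense and 40 lower (1.502% and 2.31%). The share of separated lower regions was thus no larger among members than in sparse bins, unlike the count by p.

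The shift was small and was carried unevenly by the libraries. For each region the log2 of CPM + 1 was taken as a deviation from the mean of the 8 libraries. The median deviation over members was 0.040, 0.041, 0.042 and -0.014 across WT replicates 1 to 4 and 0.026, -0.012, -0.0022 and -0.070 across the Sd/Sd ones. WT replicates 1 to 3 were the highest and Sd/Sd replicate 4 the lowest, while WT replicate 4 lay within the Sd/Sd range and below Sd/Sd replicate 1. Over sparse regions the medians ran from -0.022 in Sd/Sd replicate 1 to 0.020 in Sd/Sd replicate 3. In bins of 6 to 14 regions they stayed between 0.0019 and 0.013, and in bins of 15 to 29 between -0.0053 and 0.014. The medians over all members thus lay farther apart than those of the middle classes, which hold many more regions. For single megabases, the range of a bin's library medians had a median of 0.220 both in dense bins (0.073 to 0.566) and in bins of 15 to 29 regions (0.051 to 0.68). The latter medians rest on fewer regions each, so equal ranges do not show an equal spread.

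**Figure D2:**
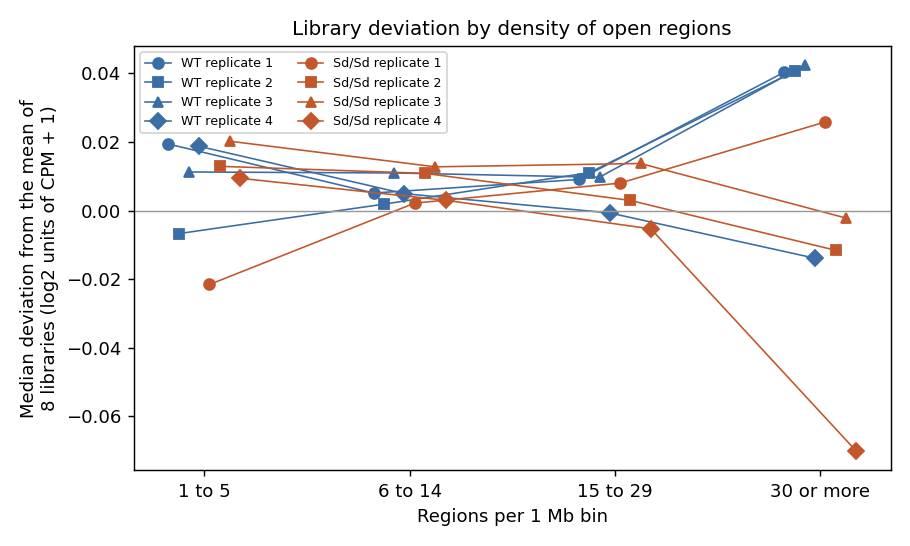
Median deviation of each library from the mean of the 8 libraries, in log2 units of CPM + 1 (y axis), by the number of regions in a region's 1 Mb bin (x axis); blue lines are WT and orange lines Sd/Sd, and the marker gives the replicate. In bins of 30 or more regions WT replicates 1 to 3 sit between 0.040 and 0.042 and Sd/Sd replicate 4 at -0.070, while WT replicate 4 (-0.014) lies among the Sd/Sd libraries.

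The member median minus the sparse median of the same library gave 0.021, 0.047, 0.031 and -0.033 in WT and 0.047, -0.024, -0.022 and -0.079 in Sd/Sd, in order of replicate. The shift averaged 0.0167 ± 0.0346 for WT and -0.0197 ± 0.0519 for Sd/Sd (mean ± SD over 4 libraries per genotype). The difference of -0.036 log2 units, Sd/Sd minus WT, was smaller than the SD of the Sd/Sd libraries, and the genotypes overlapped. It kept its sign with each library left out, from -0.060 without Sd/Sd replicate 1 to -0.021 without Sd/Sd replicate 4, and was -0.035 without chromosome 11 and -0.037 with each chromosome's median removed from each library. Without Sd/Sd replicate 4, 63 members were lower and 28 higher at an unadjusted p under 0.05, where 2.58% of all regions were lower and 2.24% higher.

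The library that stood lowest was also the deepest. Sd/Sd replicate 4 had 4180434 counts over all regions, where the other 7 had 2873918 to 3600575. The lowest library of WT, replicate 4, had 3415062 counts, less than WT replicate 1 with 3451166. Sd/Sd replicate 4 had a peak on 80.6% of sparse regions, against 55.1% to 71.2% in the other libraries. The part of depth in the shift was not tested. The share of all counts that fell on members was 7.40%, 7.45%, 7.49% and 7.21% in WT and 7.37%, 7.24%, 7.23% and 6.998% in Sd/Sd. It averaged 7.39% ± 0.124 and 7.21% ± 0.153 (mean ± SD over 4 libraries per genotype), a difference of -0.179 percentage points, and the ranges overlapped. The share on sparse regions was 5.46% ± 0.0363 in WT and 5.43% ± 0.0585 in Sd/Sd.

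Wide and narrow members had similar values, and the difference between them was not tested. For the 837 members wider than the median the median log2 fold change was -0.027. At an unadjusted p under 0.05, 12 of them were higher (1.43%) and 41 lower (4.90%). For the 839 others it was -0.036, with 15 higher (1.79%) and 48 lower (5.72%). Among all regions 2.98% were higher and 3.09% lower at that p. The 802 members with a peak in 8 libraries had a median of -0.031 with 8 higher (0.998%) and 40 lower (4.99%). The 691 with a peak in 3 to 7 libraries had -0.033 with 16 higher (2.3%) and 38 lower (5.5%). In both of these sets Sd/Sd replicate 4 was the lowest library, at -0.081 and -0.068. The 183 members with a peak in 2 libraries differed in this. There the 4 WT libraries were at 0.0197, 0.052, 0.028 and 0.012 and the 4 Sd/Sd libraries at -0.033, -0.041, -0.054 and -0.018, which did not overlap. The median log2 fold change was nevertheless only -0.022, with 3 higher (1.64%) and 11 lower (6.01%). Peaks are called on the same reads, so this set was not chosen apart from the levels compared.

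Summed over whole megabases, most dense ones were lower in Sd/Sd, by little. Counts were summed per bin and all 2368 bins were fitted with edgeR. Of the 47 dense megabases 38 (80.9%) had a log2 fold change below 0, against 48.3% of all bins and 53.3% of sparse bins, with a median of -0.038 and a range from -0.23 to 0.093. None passed an adjusted p of 0.05 in edgeR (0% of all bins did, and DESeq2 called 0 dense megabases), and the smallest adjusted p was 0.292. At an unadjusted p under 0.05, 8 dense megabases were lower (17.0%, against 6.5% of all bins) and 1 was higher (2.13%, against 3.04%). A dense bin sums more counts than most and so has a smaller error, a median SE of 0.0409 against 0.0631 over all bins. Small changes of either sign reach a given p more easily there, and the part of this in the numbers of megabases was not tested. The count of lower megabases rested on single libraries, at 4 when WT replicate 2, WT replicate 3 or Sd/Sd replicate 4 was left out, 5 when Sd/Sd replicate 2 was, 12 when WT replicate 4 was and 14 when Sd/Sd replicate 1 was. The share of all bins that were lower moved with it, at 4.35%, 4.10%, 3.46%, 5.24%, 9.33% and 11.95% in the same order, against 6.5% with all libraries. The median log2 fold change of the dense megabases was -0.020 without Sd/Sd replicate 4.

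**Figure D3:**
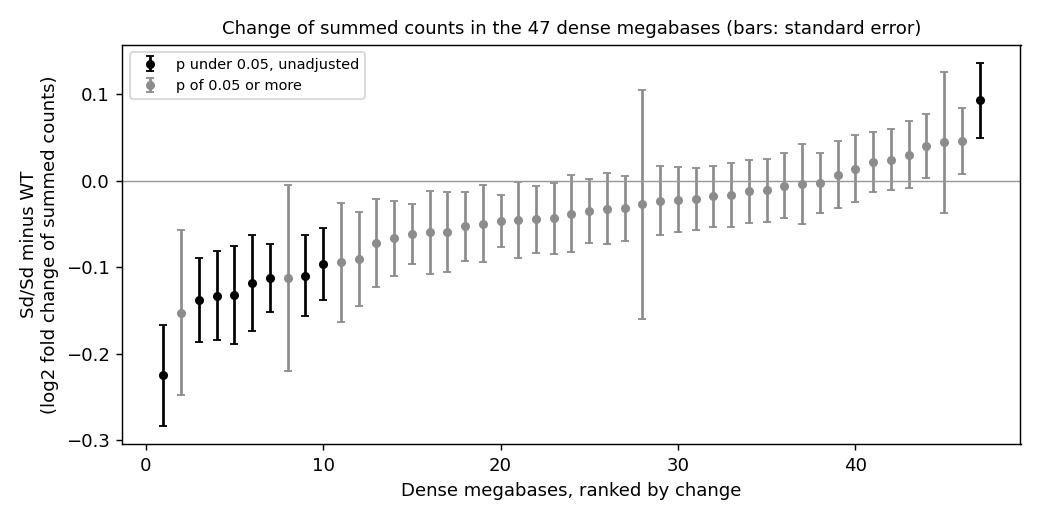
Change of summed counts between the genotypes (log2 fold change, Sd/Sd minus WT, y axis) in the 47 dense megabases, ranked from the lowest to the highest (x axis), with the standard error of the edgeR fit as bars. Black points have an unadjusted p under 0.05 (8 lower, 1 higher) and grey points do not; 38 of 47 lie below 0, and none passed after adjustment.

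The lowest of them was chromosome 11 from 120 to 121 Mb, with 35 regions. Its regions summed to 999.7, 918.2, 930.4 and 817.3 CPM across WT replicates 1 to 4 and to 849, 818.4, 755.2 and 721.5 CPM across the Sd/Sd ones. Only WT replicate 4 fell among the Sd/Sd libraries. The log2 fold change was -0.23 (SE 0.0585, adjusted p = 0.292 in edgeR) and ran from -0.28 to -0.18 with 1 library left out, and it passed in 1 of those 8 fits, without WT replicate 4 (adjusted p = 0.0392 in edgeR). Without both libraries numbered 4, an alternative chosen after seeing the data, it passed as well (log2 fold change -0.24, edgeR adjusted p = 0.00181). In that fit 8 of all bins passed, against 0 with all libraries. Both fits leave out WT replicate 4, the WT library that fell among the Sd/Sd ones. Of the 35 regions of this megabase 8 were lower at an unadjusted p under 0.05 and 0 higher. Among all regions 3.09% were lower and 2.98% higher. The megabase was named for its p on the same counts, so its regions are not separate support. Chromosome 8 from 72 to 73 Mb, with 32 regions, was the only dense megabase whose libraries separated by genotype. It summed to 1303, 1331, 1365 and 1277 CPM in WT and to 1260, 1245, 1225 and 1161 CPM in Sd/Sd (log2 fold change -0.11 with SE 0.0393, edgeR adjusted p = 0.423), where 1.86% of all bins separated in this direction and 2.24% in the other. Chromosome 10 from 79 to 80 Mb, with 41 regions, summed to 1636, 1574, 1561 and 1494 CPM in WT and to 1534, 1469, 1444 and 1261 CPM in Sd/Sd, overlapping in Sd/Sd replicate 1 (log2 fold change -0.14 with SE 0.0486, edgeR adjusted p = 0.426, and -0.082 without Sd/Sd replicate 4).

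Of the higher megabases that of smallest p was chromosome 2 from 135 to 136 Mb, with 30 regions. It summed to 992.1, 940.4, 938.8 and 1009 CPM in WT and to 969, 1050, 1024 and 1104 CPM in Sd/Sd, where replicate 1 lay within the WT range (log2 fold change 0.093 with SE 0.0434, edgeR adjusted p = 0.503, and 0.060 without Sd/Sd replicate 4). The zinc finger array of chromosome 13 from 67 to 68 Mb summed to 2001 ± 82.1 CPM for WT and 2070 ± 81.8 for Sd/Sd (mean ± SD over 4 libraries per genotype), a difference smaller than either SD. Chromosome 8 from 114 to 115 Mb, with 33 regions, summed to 1230 ± 25.4 and 1266 ± 21.6 CPM, with overlap.

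**Figure D4:**
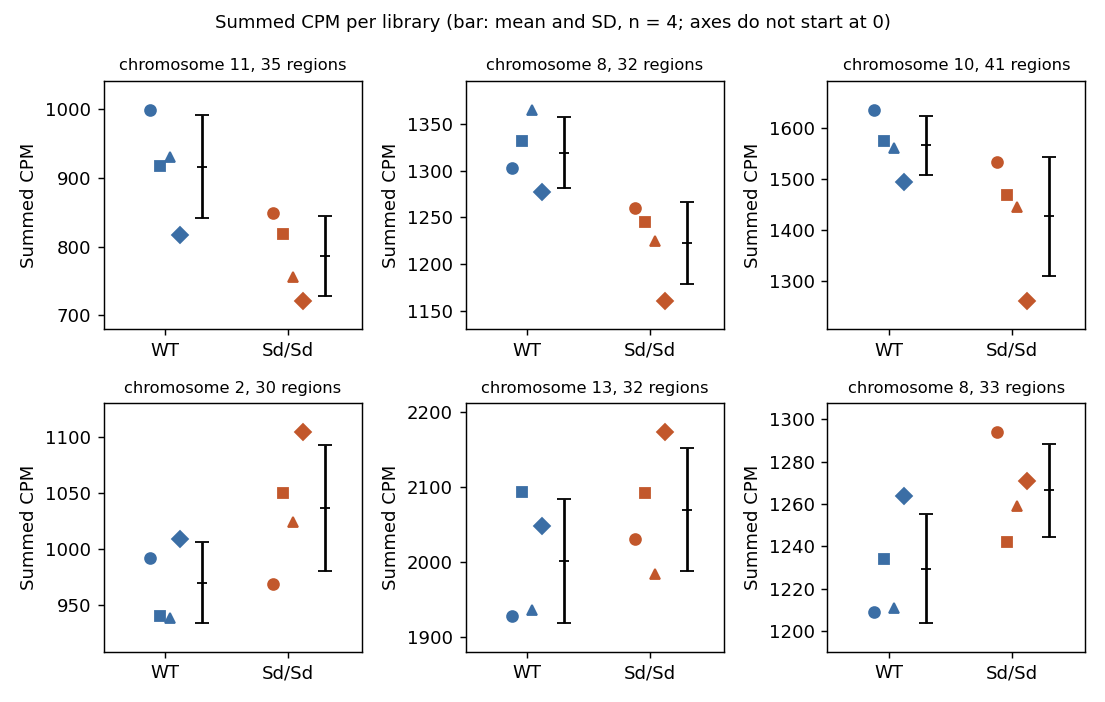
Summed CPM per library in the 3 lower (top row) and the 3 higher (bottom row) dense megabases of smallest p, for WT (blue) and Sd/Sd (orange); the marker gives the replicate, bars beside the points give mean and SD (n = 4 each), and the y axes do not start at 0. Only in the megabase of chromosome 8 with 32 regions do all 4 WT libraries (1277 to 1365) lie above all 4 Sd/Sd libraries (1161 to 1260).

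Among the 10 most crowded megabases, 3 lay close together in all libraries. Chromosome 17 from 56 to 57 Mb summed to 2698 ± 80.9 CPM for WT and 2671 ± 104 for Sd/Sd (mean ± SD over 4 libraries per genotype; log2 fold change -0.018, SE 0.0356). On chromosome 1 the megabase from 173 to 174 Mb summed to 3848 ± 51.9 and 3733 ± 63.1 CPM, and that from 174 to 175 Mb to 1979 ± 27.2 and 2013 ± 59.1 CPM. Chromosome 8 from 73 to 74 Mb differed more, at 1797 ± 105 in WT and 1670 ± 107 CPM in Sd/Sd (log2 fold change -0.11 with SE 0.0469, edgeR adjusted p = 0.467, and -0.064 without Sd/Sd replicate 4). Of its 43 regions 5 were lower at an unadjusted p under 0.05 and 0 higher, against 3.09% and 2.98% of all regions. Its median region deviated by -0.22 in Sd/Sd replicate 4, where 35 of 43 regions were below the mean of the libraries. The remaining ones had log2 fold changes from -0.061 (chromosome 12 from 114 to 115 Mb) to -0.027 (chromosome 2 from 177 to 178 Mb), with adjusted p from 0.591 to 0.957 in edgeR, beside the megabase of chromosome 10 described above.

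The same library was the lowest in many of these megabases. By the median deviation of their regions, Sd/Sd replicate 4 was the lowest library in 25 of the 47 and the highest in 5, while WT replicate 3 was the highest in 12, WT replicate 1 in 11 and WT replicate 2 in 8. On chromosome 7 from 52 to 53 Mb, 31 of 32 regions were below the mean of the libraries in Sd/Sd replicate 4, with a median of -0.31. In the HoxC megabase 34 of 37 were, with a median of -0.20, and in the histone megabase of chromosome 13 from 23 to 24 Mb 31 of 34, with -0.26. The array of chromosome 13 from 67 to 68 Mb went the other way, with 28 of 32 regions above the mean in Sd/Sd replicate 4. A WT library stood apart on chromosome 4 from 155 to 156 Mb, where 30 of 30 regions were above the mean in WT replicate 3, with a median of 0.35. These megabases were picked after the values were seen.

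The zinc finger array of chromosome 2 from 177 to 178 Mb varied most among the 10 most crowded, between libraries of 1 genotype. Its 49 regions summed to 1789, 2717, 2588 and 2357 CPM across WT replicates 1 to 4 and to 2282, 2299, 2226 and 2478 CPM across the Sd/Sd ones. The WT libraries spanned the whole Sd/Sd range (log2 fold change -0.027 with SE 0.132, edgeR adjusted p = 0.957). In WT replicate 1, 42 of 49 regions were below the mean of the libraries and 30 had their lowest value of all libraries, and in WT replicate 2, 36 were above it.

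The variation was larger in the first part of that array. Divided at its widest gap, of 139793 bp, the megabase has 26 regions from 177014015 to 177353832 and 23 from 177493626 to 177999635. The first part summed to 888.1 CPM in WT replicate 1 and 1603 in WT replicate 2, and to 1166 to 1331 CPM in the 4 Sd/Sd libraries. The second part summed to 900.9 and 1114 CPM in these WT libraries and to 1039 to 1147 CPM in Sd/Sd, so that WT replicate 1 was the lowest library there too, with 18 of 23 regions below the mean. Single regions of the first part reached a deviation of -1.56 log2 units in WT replicate 1. Without that library, the region from 177273836 to 177275692 was lower in Sd/Sd (log2 fold change -0.49, edgeR adjusted p = 0.00607), where with all 8 libraries it had -0.22 and an adjusted p of 0.976. In the fit without that library 19 of all regions passed, against 5 with all libraries. The part of copy number or of read placement in these values was not tested.

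**Figure D5:**
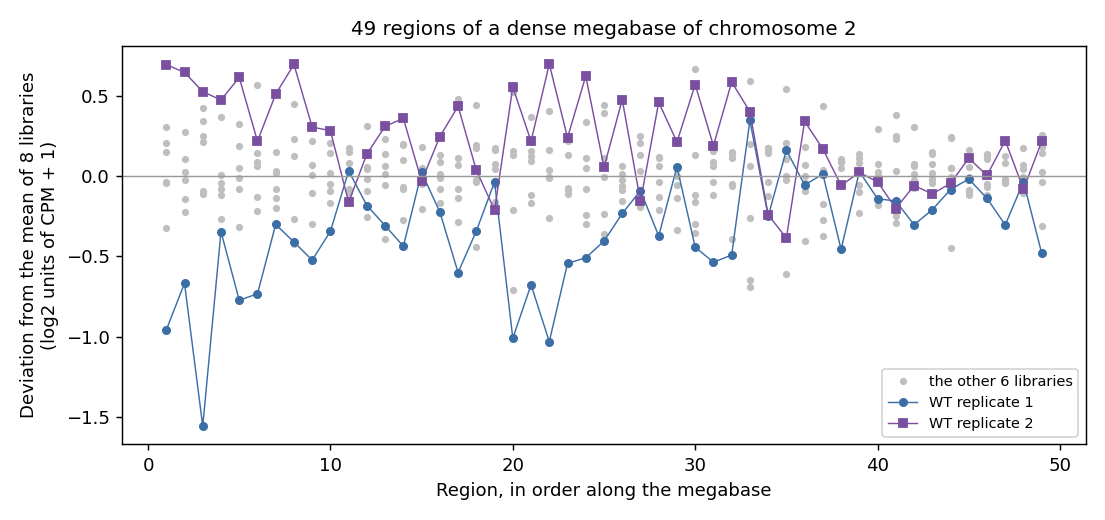
Deviation from the mean of the 8 libraries in log2 units of CPM + 1 (y axis) for the 49 regions of chromosome 2 from 177 to 178 Mb, in order along the chromosome (x axis); blue circles are WT replicate 1, purple squares WT replicate 2 and grey points the other 6 libraries. WT replicate 1 is below 0 in 24 of the first 26 regions and WT replicate 2 above 0 in 23 of them.

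The single members of smallest p were described by the same measures, and none passed adjustment. Of the 5 lower in Sd/Sd, the region of chromosome 4 from 114338319 to 114339884 measured 63.5, 53.6, 55.7 and 62.1 CPM across WT replicates 1 to 4 and 39.99, 43.4, 43.7 and 45.5 CPM across the Sd/Sd ones. The libraries separated fully (log2 fold change -0.44 with SE 0.12, edgeR adjusted p = 0.343), and each had a peak there. The region of chromosome 8 from 73117937 to 73119000 fell short of the threshold in the same way. It measured 56.5, 53.3, 47.3 and 54.8 CPM in WT and 39.99, 40.5, 37.7 and 35.6 CPM in Sd/Sd (log2 fold change -0.46 with SE 0.127, edgeR adjusted p = 0.343).

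A pair of lower regions lay on chromosome 9, in the dense megabases starting at 107 and 108 Mb. The one from 107470698 to 107471845 measured 36.8, 43.7, 42.5 and 45.1 CPM in WT and 31.4, 25.9, 30.8 and 30.9 CPM in Sd/Sd (log2 fold change -0.49 with SE 0.143, edgeR adjusted p = 0.383). The one from 108957149 to 108957902 measured 20.9, 28.2, 23.0 and 19.6 CPM in WT and 14.4, 13.9, 14.8 and 13.9 CPM in Sd/Sd (log2 fold change -0.67 with SE 0.20, edgeR adjusted p = 0.410). In both, each WT library exceeded each Sd/Sd library. In the megabase of chromosome 11 the region from 120534051 to 120534773 measured 42.0, 27.5, 37.6 and 42.2 CPM in WT and 24.7, 32.0, 24.1 and 24.9 CPM in Sd/Sd, with overlap between WT replicate 2 and Sd/Sd replicate 2 (log2 fold change -0.50 with SE 0.152, edgeR adjusted p = 0.438).

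The 5 members of smallest p in the other direction had an adjusted p of 0.607 to 0.709 in edgeR, and 3 of them were narrow. On chromosome 10 from 128789407 to 128790317 libraries averaged 24.2 ± 6.38 (WT) and 33.5 ± 2.43 CPM (Sd/Sd) (mean ± SD over 4 libraries per genotype; log2 fold change 0.48, SE 0.159), where WT replicate 2, at 32.5 CPM, lay within the Sd/Sd range. On chromosome 19 from 53495365 to 53496349 they averaged 32.5 ± 1.18 and 41.98 ± 3.68 CPM (log2 fold change 0.38, SE 0.14), with each Sd/Sd library above each WT library. The other three were 336 to 365 bp wide. They had means, WT then Sd/Sd, of 7.39 ± 1.84 and 12.6 ± 1.79 CPM on chromosome 7 from 6750171 to 6750506, of 10.1 ± 1.52 and 15.6 ± 3.08 CPM on chromosome 2 from 135228656 to 135228993, and of 9.92 ± 1.39 and 15.4 ± 4.65 CPM on chromosome 1 from 174642197 to 174642561. These had a peak in 0 of 4 WT libraries and in 3, 2 and 2 of the Sd/Sd libraries, so no WT peak placed them among the counted regions.

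The precision was higher for megabases than for single members. The median member received 97 to 126 counts per library, against 63 to 92 for the median sparse region, and the standard error of a member's log2 fold change had a median of 0.151. A summed dense megabase had a median SE of 0.0409. The log2 fold changes of members ran from -1.03 to 0.77.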

How the data were processed

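The submitters' processing notes name mm9 as genome build, MACS2 2.1.1.20160309 and bedtools 2.26.0 as tools, with BWA 0.7.15-r1140, SAMtools, Picard, bcl2fastq 2.17.1.14 and CASAVA. Settings, and whether reads, fragments or cuts are counted, are not given in those notes or the labels. A whole-number count per region was deposited by the authors, not normalized, over the same 26620 regions in each library. They also deposited peak lists per library, with the peak caller's score, fold enrichment (a ratio), −log10 p-value and −log10 q-value, of which the fold and the presence of a peak (any overlap) were used. Total counts per library were 2873918 to 4180434.

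CPM are counts over the library's total. Regions, and counts summed per 1 Mb bin, were tested with edgeR 4.0.16 (quasi-likelihood F test, robust, TMM, two-sided, all 8 libraries, genotype only) in R 4.3.3, with Benjamini-Hochberg adjustment over all regions or all bins and a threshold of 0.05. filterByExpr would remove 0 regions. SE are the fold change over the square root of F. Simulated counts were drawn independently for each of the 26620 regions, with the same dispersion for all. On them the procedure called 97 of 100 changes of 2-fold, 53 of 100 of 1.5-fold and 6 of 26420 unchanged regions. Regions that vary more than this dispersion are not covered by these rates. Scores over the members have no p. Named were the 10 dense megabases with most regions, the 3 of smallest p in each direction, and the members of smallest p (5 in each direction), of highest CPM (5) and widest (5). The labels do not say that replicate numbers mark a litter or day, so numbers were not used as pairs. Deviations of same-numbered libraries correlated at -0.00074 to 0.0085 for numbers 1 to 3 and at 0.093 for number 4. Whether libraries of the same number share a batch was not tested. Alternatives were DESeq2 1.42.0, limma 3.58.1 with cyclic loess, other scalings, filters, bins and pseudocounts, leaving out each library, and a replicate block. Python 3.11.15 was used for the rest. The members and tests were chosen with earlier results of these data known.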

Additional observations from a re-analysis of the deposited data

Results flagged for a closer look

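Among the 70 sets of 4 libraries checked (named members and megabases, total counts, the share of counts on members and the shift, by genotype), a single library stood far outside the rest in 5, where about 1 in 20 is what chance yields. Chromosome 7 from 148 to 149 Mb summed to 1354 CPM in Sd/Sd replicate 4 and to 1558 to 1584 in the other Sd/Sd libraries. On chromosome 9 from 107470698 to 107471845, Sd/Sd replicate 2 had 25.9 CPM against 30.8 to 31.4. On chromosome 11 from 120534051 to 120534773 the same library had 32.0 CPM against 24.1 to 24.9. On chromosome 1 from 173496862 to 173499074, WT replicate 3 reached 270.7 CPM and the other WT libraries 250.1 to 253.3. On chromosome 6 from 133703089 to 133706961, WT replicate 1 had 103.2 CPM against 88.1 to 90.5.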

How the results depend on the processing

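The difference in shift stayed below 0 under all alternatives run, from -0.060 to -0.021. The share of counts on members did so too, from -0.239 to -0.061 percentage points, and the ratios of width and level stayed above 1 (1.15 to 1.17 and 1.23 to 1.71). With 1 library left out the shift ran from -0.060 to -0.021, the share of counts from -0.239 to -0.109 and the ratio of levels from 1.466 to 1.497. Alternatives chosen after seeing the data gave a shift of -0.027 with each dense bin counted once and -0.035 without both libraries numbered 4. Members past the adjusted threshold numbered 0 to 2 with 1 library left out. The 2, without Sd/Sd replicate 3, were on chromosome 12 at 89327074 to 89328195 and 89347595 to 89349042 (adjusted p = 0.00465 and 0.0203 in edgeR). In that fit 16 of all regions passed, and 19 did without WT replicate 1, where 1 member passed. With all libraries 5 of all regions passed. At an unadjusted p under 0.05, members numbered 22 to 37 higher and 63 to 118 lower with 1 library left out. In those fits 2.24% to 3.76% of all regions were higher and 2.58% to 3.95% lower. Members at that p were 69 higher and 132 lower in bins of 25 or more regions (3354 members). They were 19 and 78 with bins moved by 0.5 Mb (1546 members), and 7 and 19 in bins of 40 or more (397 members). These come from the same fit, in which 2.98% of all regions were higher and 3.09% lower. In bins of 15 to 29 regions 3.22% were higher and 2.77% lower, so these did not tilt to lower. DESeq2 gave 23 members higher and 62 lower, where 2.15% of all regions were higher and 2.27% lower. Dense megabases past the adjusted threshold numbered 0 to 1 with 1 library left out. At an unadjusted p under 0.05 they numbered 0 to 1 higher and 4 to 14 lower. In those fits 1.52% to 5.36% of all bins were higher and 3.46% to 11.95% lower. Without both libraries numbered 4, 1 dense megabase passed (of 8 bins), with 0 higher and 10 lower. In that fit 2.70% of all bins were higher and 6.42% lower. Dense megabases were 0 higher with DESeq2, and 4 higher and 13 lower in bins of 25 or more. They were 0 and 2 in bins of 40 or more, and 0 and 5 with bins moved by 0.5 Mb. The thresholds change the number of bins by construction. The cause of the other differences was not tested.

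With the replicate block, 5 dense megabases passed (of 42 bins that did, against 0 without it) and 15 were lower at an unadjusted p under 0.05, where 10.85% of all bins were lower and 5.70% higher. The 5 lay on chromosomes 7 (52 Mb), 9 (107 Mb), 10 (79 and 80 Mb) and 11 (120 Mb; adjusted p = 0.00172 in edgeR). The numbers are not known to pair the libraries, and only that of replicate 4 correlated best with its own number. Within numbers the differences in shift were 0.026, -0.072, -0.053 and -0.047, with the mean unchanged at -0.036, as was that of the share of counts (-0.179). The block called 0 members, with 35 higher and 101 lower at an unadjusted p under 0.05, where 3.51% and 3.37% of all regions were.

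Among named items, 7 with small changes turned sign with 1 library left out. Their log2 fold changes ran from -0.033 to 0.0093 (chromosome 1 at 173496862), -0.070 to 0.011 (chromosome 4 at 145036094), -0.12 to 0.014 (chromosome 10 at 126775951), -0.040 to 0.0084 (chromosome 17 from 56 Mb), -0.14 to 0.045 (chromosome 2 from 177 Mb), -0.0040 to 0.034 (chromosome 1 from 174 Mb) and -0.077 to 0.0029 (chromosome 7 from 148 Mb). In simulated data, with the same dispersion for all regions or all bins, 53 of 100 changes of 1.5-fold were called for regions and 100 of 100 for bins. Of unchanged bins 9 of 2168 were called. The part of depth in this was not tested.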
